A study of Mus musculus with 6 samples.

Results

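The non-P450 phase I enzymes were read in liver of house mice (Mus musculus). They are the enzymes outside the cytochromes P450 that oxidise, reduce or hydrolyse alcohols, aldehydes, ketones, amines and esters. The families were chosen with earlier results of these data known, and their genes were taken by name. The families were alcohol dehydrogenases (Adh), aldehyde dehydrogenases (Aldh), aldo-keto reductases of family 1 (Akr1), flavin-containing monooxygenases (Fmo), carboxylesterases (Ces) and aldehyde oxidases (Aox). The rule found 75 names and left 73 of the 47232 gene names with an estimate, after Adh6-ps1 and Ces2d-ps were set aside for their pseudogene suffix. There were 6 Adh, 21 Aldh, 16 Akr1, 7 Fmo, 19 Ces and 4 Aox genes.

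The samples were livers of 3 laboratory mice and 3 wild mice, each measured once by RNA-Seq. The laboratory mice were inbred C57BL/6 adults, all male, and were killed on arrival. The wild mice were adults live-trapped at a pair of sites in New South Wales, Australia, and housed for some months in natural light. Wild mouse 1 was male and wild mice 2 and 3 were female. The labels name no treatment, transgene or deletion in either group. Origin therefore ran together with strain, housing and, in part, sex, and their parts cannot be told apart here. The liver was frozen without fixation before RNA was taken.

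Phase I enzymes add or unmask a polar group on drugs, dietary compounds and endogenous steroids, retinoids and lipids, which other enzymes can then conjugate. The liver holds most of this capacity, and the dehydrogenases and reductases pass hydride to or from nicotinamide cofactors. The monooxygenases carry flavin, the aldehyde oxidases carry a molybdenum cofactor and the carboxylesterases are serine hydrolases that split esters, amides and stored lipid. Several of these genes lie in tandem arrays that arose by duplication.

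Levels are given as FPKM, the fragments mapped to a gene scaled to its length and to the library. Differences were tested on zFPKM, the authors' score, in which a gene's log2 FPKM is counted from the most common value in that mouse, in units of an SD fitted to the same curve. A zFPKM difference of 1 is thus 1 such SD, which lay between 2.51 and 3.12 log2 units in the 6 mice. How many reads each library held is unknown. Relative to laboratory mouse 2, the lowest depth was 0.922, in laboratory mouse 3, and the wild libraries were deeper, at 1.14 to 1.36. The median over genes of the difference, wild minus laboratory, was 0.47 on the scale log2(FPKM + 0.1) and -0.0050 in zFPKM. The medians of the single mice, which centring sets to 0, were on average 0.74 higher in wild mice on that log2 scale and 0.034 higher in zFPKM. A fold change in FPKM holds this shift. Within each group the zFPKM medians were uneven. The lowest belonged to laboratory mouse 3 (-0.75) and the wild male (-0.70), while the rest lay between -0.28 and -0.17. The main test on zFPKM keeps these offsets between single mice. The 8 hepatocyte markers measured summed to FPKM between 30327 and 42255 in laboratory and between 31645 and 37224 in wild mice. Of these, 5 were higher and 2 lower in wild mice. Kidney markers reached a summed FPKM of 0.0631 in 1 wild mouse and were listed at 0 elsewhere. Of 7 erythroid markers, 5 were lower in wild mice, with sums of 1341 to 5138 in laboratory and 724 to 1582 in wild mice. Spp1 of the biliary list and Col1a1 of the stellate list were also lower, and Apoa4 of the small intestine list was higher. Their part in the results was not tested. In whole liver, fewer cells of a type and less RNA in each cell cannot be told apart.

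Most of the 73 genes were expressed in liver. An FPKM above 1 in all 6 mice was found for 44, while Adh6a, Akr1cl, Ces2f, Ces5a and Fmo9 were listed at 0 in all 6. The 10 highest genes of a mouse held between 67.5% and 76.9% of the FPKM summed over the 73. Laboratory mice had a sum of 4523 ± 628 (SD, n = 3), and the sum of wild mice was 2.55-fold higher at 11553 ± 378 (SD, n = 3). The families differed in how far apart the groups lay. The Aldh sum was 844 ± 123 in laboratory and 3732 ± 112 in wild mice, 4.42-fold higher. The Akr1 sum was 464 ± 109 and 1867 ± 170, 4.02-fold higher. In both families each wild mouse lay above each laboratory mouse by a wide margin. The Adh sum was 925.6 ± 134 in laboratory and 1925 ± 271 in wild mice, 2.08-fold higher. The Ces sum was 2093 ± 257 in laboratory and 3377 ± 164 in wild mice, 1.61-fold higher. The Aox sum, 73.2 ± 6.41 against 79.9 ± 30.0, overlapped between the groups. These sums are descriptions with n = 3 mice in each group, and no test was run on them.

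**Figure D1:**
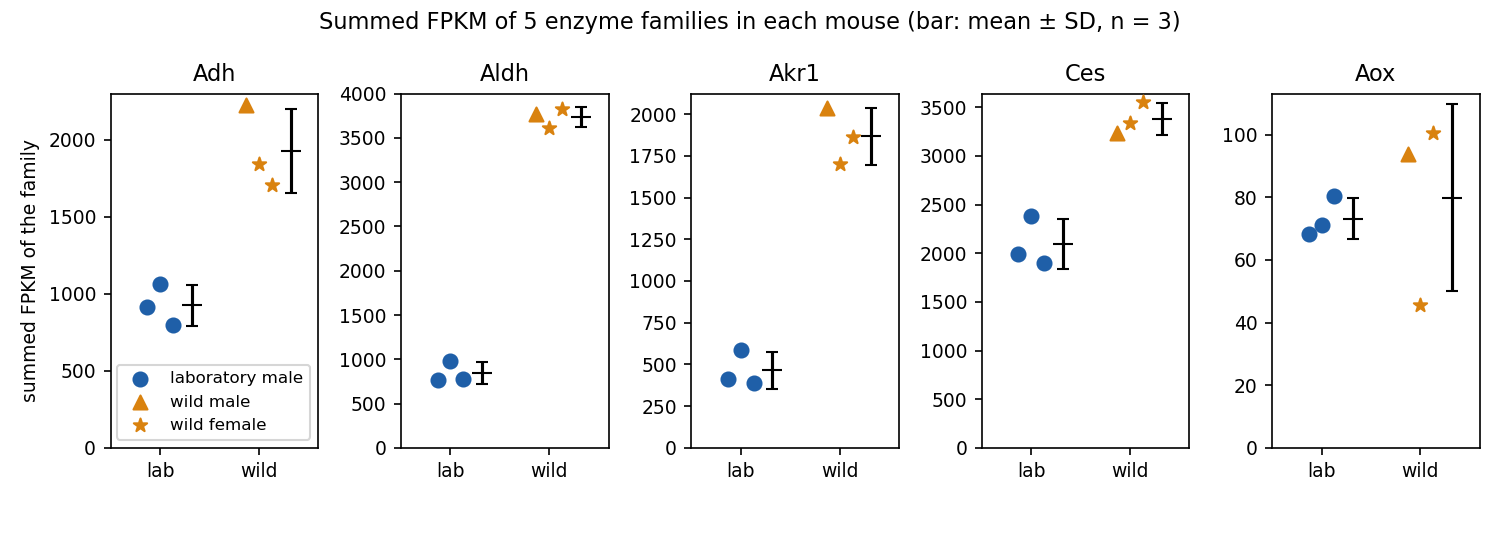
Summed FPKM of 5 families (vertical axis, linear from 0, with its own range in each panel) in the laboratory mice (circles), the wild male (triangle) and the wild females (stars), with the mean ± SD (n = 3) beside each group. The groups are apart in Adh, Aldh, Akr1 and Ces and overlap in Aox, where 1 wild female has a sum of 45.5 and the other 2 wild mice 93.8 and 100.4.

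Of the 73 genes, 63 had a zFPKM above -3 in at least 3 mice and were tested by limma together with all 18619 genes that passed. The other 10 were the 5 listed at 0 and Aldh3a1, Aldh3b3, Aox2, Aox4 and Fmo6, and of these Aldh3b3 alone reached an FPKM above 1, with 2.86 in 1 wild female. At an adjusted p under 0.05, 23 of the 63 were higher in wild mice and 3 were lower. Over all genes tested 7.28% were higher in wild mice and 7.17% lower, 14.4% in all, against 41.3% of the 63. The median zFPKM difference, wild minus laboratory, was 0.25 over the 63 and -0.0050 over all genes tested, and 46 of the 63 lay above 0. The groups did not overlap in zFPKM for 27 genes with wild mice above, where the share over all genes is 14.1%, and for 4 with laboratory mice above, where it is 14.2%. In FPKM, wild mice were above without overlap in 44 of 63, but this was so for 43.7% of all genes. With log2(FPKM + 0.1) centred on each mouse's median gene, 27 were higher and 8 lower, against 18.6% and 28.7% over all genes, and 25 of the 26 calls in zFPKM were kept in the same direction. On the uncentred scale 42 were higher and 1 lower, against 37.9% and 8.19% of all genes. With quantile normalization 30 were higher and 6 lower, against 20.4% and 18.7%, and with each mouse's median zFPKM set to 0 there were 15 and 3, against 13.9% and 14.4%. With that median, 14 of the 26 calls were kept, and Aldh1a1, Aldh1l1, Aldh2, Akr1c6, Akr1c14, Fmo1, Fmo5, Ces1e, Ces1f, Ces1g, Ces3a and Ces3b were no longer called. With sex in the model, 8 of the 23 genes remained called, as given with the sexes of the wild mice. Without the mean-variance trend of limma 5 of the 26 calls were left, without wild mouse 3 there were 12 higher and 3 lower, and without laboratory mouse 3 there were 21 and 6.

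**Figure D2:**
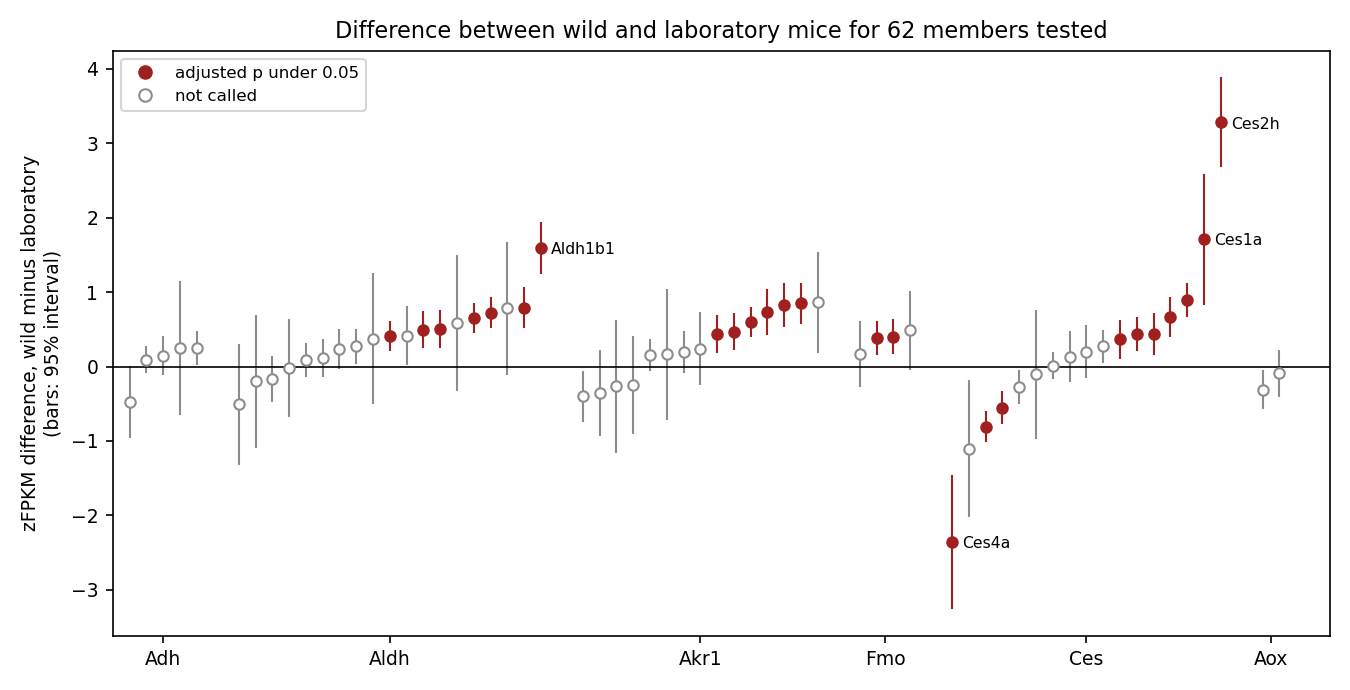
zFPKM difference, wild minus laboratory (vertical axis), with its 95% interval for 62 of the genes tested, sorted within each family. Filled points have an adjusted p under 0.05 (limma). Called genes lie above 0 in Aldh, Akr1 and Fmo, on both sides of 0 in Ces, and are missing in Adh and Aox.

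The aldehyde dehydrogenases, which oxidise aldehydes to acids, held 7 called genes of 19 tested, all higher in wild mice. Aldh1b1, a mitochondrial enzyme that acts on acetaldehyde, stood apart in size. Laboratory mice had FPKM of 1.61, 2.11 and 1.90, and wild mice 60.2, 83.0 and 80.0. The highest laboratory mouse lay far below the lowest wild mouse, and the mean was 39.7-fold higher in wild mice (zFPKM difference 1.59, SE 0.179, limma adjusted p = 1.17e-16). Aldh1b1 lies on chromosome 4 (45799022 to 45804608, GRCm38.p6). Aldh1a1, a cytosolic enzyme that makes retinoic acid from retinal, had FPKM of 109, 186 and 100 in laboratory and 1237, 673 and 807 in wild mice. It was 6.88-fold higher (0.72, SE 0.105, limma adjusted p = 4.75e-10), and among the wild mice the male was the highest. With each mouse's median zFPKM set to 0 it was not called (limma adjusted p = 0.0639). Aldh1l1, which takes the formyl group from formyltetrahydrofolate, had 112, 144 and 132 against 772, 875 and 756. The 3 wild mice were close together, 6.19-fold above the laboratory mice (0.65, SE 0.105, limma adjusted p = 3.91e-08).

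The other called Aldh genes act in mitochondria or on fatty aldehydes. Aldh4a1, of proline breakdown, had FPKM of 11.5, 15.3 and 19.4 in laboratory and 108, 147 and 121 in wild mice, 8.11-fold higher (limma adjusted p = 6.52e-07). Of its 100-base transcript stretches, 27.5% also occur in another transcript, most of them in Gm21969, which makes its estimate less certain. Aldh2, the main mitochondrial enzyme for acetaldehyde and the highest Aldh gene on average, had 244, 298 and 212 against 818, 938 and 1093, 3.78-fold higher (limma adjusted p = 0.000894). Aldh3a2, the fatty aldehyde dehydrogenase, and Aldh6a1, of valine breakdown, were 4.54-fold and 4.40-fold higher (limma adjusted p = 0.00195 and 0.00174). In these 4 genes no wild mouse overlapped a laboratory mouse. Aldh1a1 supplied 12.9% to 18.8% of the family's FPKM in laboratory animals and 18.7% to 32.9% in wild ones. Aldh8a1, which also acts on retinal, had a zFPKM difference of 0.09 (SE 0.12, limma adjusted p = 0.713), although its FPKM did not overlap between the groups.

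The aldo-keto reductases reduce aldehydes, ketones and keto groups of steroids. Of 15 tested, 6 were called, all higher in wild mice, and 5 of these lie in a run of 9 genes on chromosome 13 (4048991 to 4609164). Akr1c6, a hydroxysteroid dehydrogenase and the highest of the family on average, had FPKM of 138, 238 and 144 in laboratory and 1059, 816 and 907 in wild mice. The groups were well apart and the mean was 5.36-fold higher (0.60, SE 0.103, limma adjusted p = 2.76e-07). Akr1c6 made up 33.2% to 40.3% of the family's FPKM in laboratory animals and 48.1% to 51.9% in wild ones. Akr1c20 had 9.02, 20.8 and 10.0 against 92.5, 113 and 126, 8.31-fold higher (0.85, SE 0.143, limma adjusted p = 2.00e-07). Akr1c13 was 7.99-fold, Akr1c19 7.13-fold and Akr1c14, which acts on 3α-hydroxysteroids, 4.21-fold higher (limma adjusted p = 2.16e-06, 8.98e-05 and 0.00296). Akr1c19 was nearly constant among laboratory mice, with FPKM of 8.01, 8.13 and 8.33, and spread from 46.7 to 71.5 among wild mice.

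The remaining 4 genes of the chromosome 13 run were not called. Akr1c12 shares 11.5% of its stretches with Akr1c13, so reads of the pair may have been divided unevenly, and its FPKM was 2.39-fold higher with a zFPKM difference of 0.20 (limma adjusted p = 0.409). Akr1e1 had FPKM of 13.6, 15.9 and 12.8 in laboratory and 14.3, 3.64 and 18.4 in wild mice. The range of the wild mice enclosed that of the laboratory mice. Akr1c18 and Akr1c21 stayed below an FPKM of 1 in all 6 mice. Outside the run, Akr1d1, the 5β-reductase of bile acid synthesis, was called, with 27.5, 40.1 and 31.4 against 105, 143 and 146, 3.99-fold higher (0.44, SE 0.13, limma adjusted p = 0.00903). Akr1a1, the aldehyde reductase, was the highest or the next highest of the family in each mouse and was not called (0.15, SE 0.111, limma adjusted p = 0.421). None of the 4 Akr1b genes on chromosome 6 was called.

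The flavin-containing monooxygenases oxidise nitrogen and sulphur in amines, drugs and diet-derived compounds. Fmo1 and Fmo5 were called higher in wild mice. Fmo5, the highest Fmo gene on average, had FPKM of 59.5, 86.5 and 63.2 in laboratory and 340, 204 and 199 in wild mice. It was 3.56-fold higher in wild mice (limma adjusted p = 0.0134). Here the wild male was the highest mouse. Fmo1 had 35.7, 55.4 and 58.4 against 152, 222 and 188, 3.76-fold higher (limma adjusted p = 0.0116). Fmo2 and Fmo4 were 5.12-fold and 2.20-fold higher in FPKM without a call (limma adjusted p = 0.251 and 0.697).

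**Figure D3:**
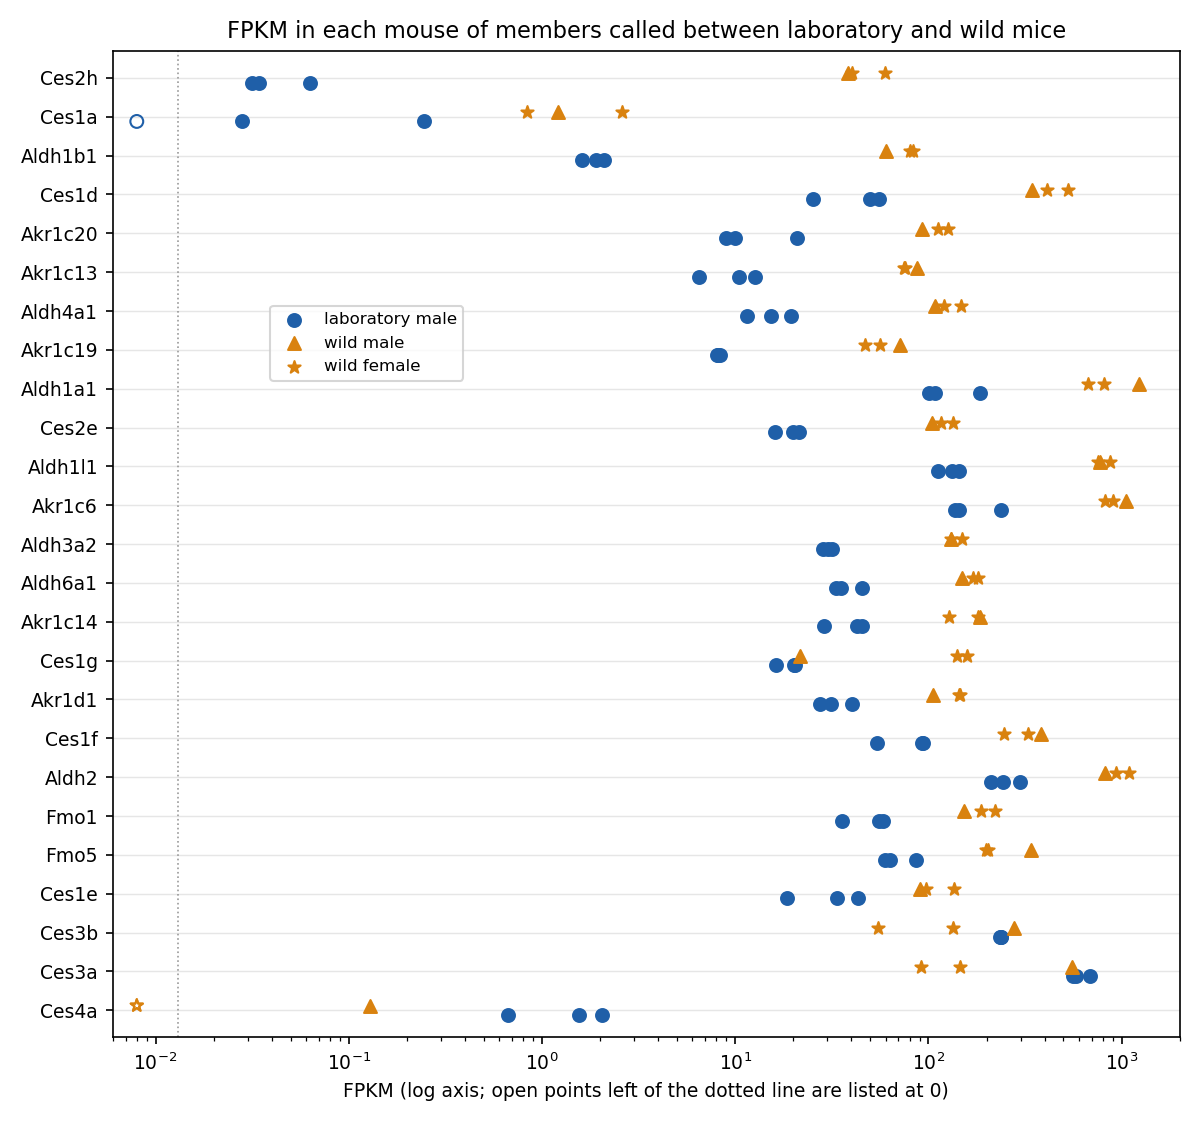
FPKM (horizontal log axis) in each mouse of 25 genes with an adjusted p under 0.05 between laboratory mice (circles) and wild mice (triangle, the male; stars, the females), ordered by zFPKM difference. Open points left of the dotted line are listed at 0. Most genes have 2 separate groups of 3 points, whereas in Ces1g, Ces3a and Ces3b the wild male lies away from the wild females.

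The carboxylesterases moved in both directions. Of 17 tested, 7 were higher and 3 lower in wild mice. The Ces genes form 2 runs on chromosome 8, one of Ces1 genes with Ces5a (93020214 to 93535879) and one of Ces2, Ces3 and Ces4 genes (104734003 to 105150109). In the Ces1 run 5 of 8 genes tested were higher and none was lower. Ces1d, a triacylglycerol hydrolase of liver, had FPKM of 25.4, 55.4 and 49.8 in laboratory and 345, 527 and 409 in wild mice, 9.81-fold higher (0.90, SE 0.118, limma adjusted p = 4.09e-12). Ces1f, a related lipid hydrolase, had 54.4, 94.2 and 92.8 against 381, 246 and 326, 3.95-fold higher (limma adjusted p = 0.00223). Ces1e was 3.38-fold higher (0.37, SE 0.133, limma adjusted p = 0.0435). Ces1a was low throughout, with 0, 0.0281 and 0.244 against 1.21, 0.835 and 2.59 (1.71, SE 0.449, limma adjusted p = 0.00221), a difference that depends on the floor of -3 given to lower zFPKM. Ces1c, an esterase that liver secretes into plasma, was the highest Ces gene and did not differ detectably. Its FPKM was 777, 936 and 604 in laboratory and 1005, 1482 and 1495 in wild mice, with a zFPKM difference of 0.0091 (95% interval -0.17 to 0.19, limma adjusted p = 0.970).

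In the Ces2 to Ces4 run the direction changed from gene to gene. Ces2h was nearly silent in laboratory mice, with FPKM of 0.0630, 0.0315 and 0.0342, the last 2 worth about 1 read each. In wild mice it had 38.4, 59.8 and 40.2, high in the male and in both females (3.28, SE 0.308, limma adjusted p = 8.66e-24). Ces2e was also higher, with 21.4, 20.0 and 16.2 against 105, 116 and 134, 6.17-fold (limma adjusted p = 3.85e-05). Ces2a, next in level to Ces3a and Ces3b in the run, was not called (-0.28, SE 0.116, limma adjusted p = 0.0946). The 3 genes at the far end of the run were lower. Ces3a had 562, 690 and 580 in laboratory and 557, 91.2 and 146 in wild mice. The wild male lay just below the laboratory males and the females several-fold below, and the mean was 2.31-fold higher in laboratory mice (-0.81, SE 0.104, limma adjusted p = 1.34e-12). Ces3b had 235, 238 and 239 against 278, 54.9 and 134 (-0.55, SE 0.113, limma adjusted p = 3.38e-05). Its groups overlap in FPKM, where the wild male was the highest of the 6 mice, and are apart in zFPKM only. On uncentred log2(FPKM + 0.1) neither Ces3a nor Ces3b was called (limma adjusted p = 0.0560 and 0.192). Ces3a and Ces3b share 6.88% and 7.04% of their stretches, largely with each other. Ces4a was low, with 2.04, 1.56 and 0.664 against 0.129, 0 and 0 (-2.36, SE 0.460, limma adjusted p = 1.10e-05), a size that depends on the floor.

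Windows of 250 bases before the RefSeq start (GRCm38.p6) were taken for genes with the largest zFPKM differences between origins and genes called for sex. Those of 4 Ces genes are shown, and that of Aldh1b1, which held no match, is not. The 4 are Ces2h (chr8:105000580-105000829, plus strand) and, further along the same run, Ces4a (chr8:105131550-105131799, plus strand), Ces1a (chr8:93048193-93048442, minus strand) and Ces1g (chr8:93337210-93337459, minus strand). Capitals mark the one match to the letters searched, TTTATA in Ces1g, which is TATAAA on the other strand and begins 26 bases before the start.
Ces2h: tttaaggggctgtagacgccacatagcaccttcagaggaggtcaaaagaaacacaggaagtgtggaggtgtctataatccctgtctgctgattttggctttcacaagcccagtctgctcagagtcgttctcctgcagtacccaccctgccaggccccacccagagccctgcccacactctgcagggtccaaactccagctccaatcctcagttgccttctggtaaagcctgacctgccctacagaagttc
Ces4a: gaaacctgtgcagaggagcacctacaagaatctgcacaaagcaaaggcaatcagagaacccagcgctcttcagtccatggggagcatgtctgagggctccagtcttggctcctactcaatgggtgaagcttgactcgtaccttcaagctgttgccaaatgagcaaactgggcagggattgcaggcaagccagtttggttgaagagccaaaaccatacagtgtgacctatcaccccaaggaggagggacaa
Ces1a: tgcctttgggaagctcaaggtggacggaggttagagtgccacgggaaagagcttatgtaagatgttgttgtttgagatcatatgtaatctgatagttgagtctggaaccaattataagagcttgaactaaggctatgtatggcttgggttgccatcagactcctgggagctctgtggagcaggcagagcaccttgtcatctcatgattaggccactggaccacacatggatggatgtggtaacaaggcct
Ces1g: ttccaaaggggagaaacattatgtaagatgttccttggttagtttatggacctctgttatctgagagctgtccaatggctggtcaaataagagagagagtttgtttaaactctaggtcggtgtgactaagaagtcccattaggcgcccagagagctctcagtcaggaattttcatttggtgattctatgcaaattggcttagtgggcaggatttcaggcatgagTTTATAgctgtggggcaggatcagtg
Ces1a and Ces1g share a run of 14 bases, ttatgtaagatgtt, at positions -198 and -232 from their starts, and no other pair of the 4 shares more than 8 bases. The letters searched on both strands were TTCNNNGAA (STAT5), TGACNNNGC (NRF2), GTTAAT (part of the HNF1 site) and TATAAA (a core promoter box). They occur in 7.02%, 10.2%, 6.43% and 12.4% of all 32851 windows of this length, and in 8, 4, 5 and 11 of the 58 windows found for the enzymes. Of the 17 windows found for genes higher in wild mice, 1, 0, 0 and 3 held them. These matches are descriptions of letters.

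**Figure D4:**
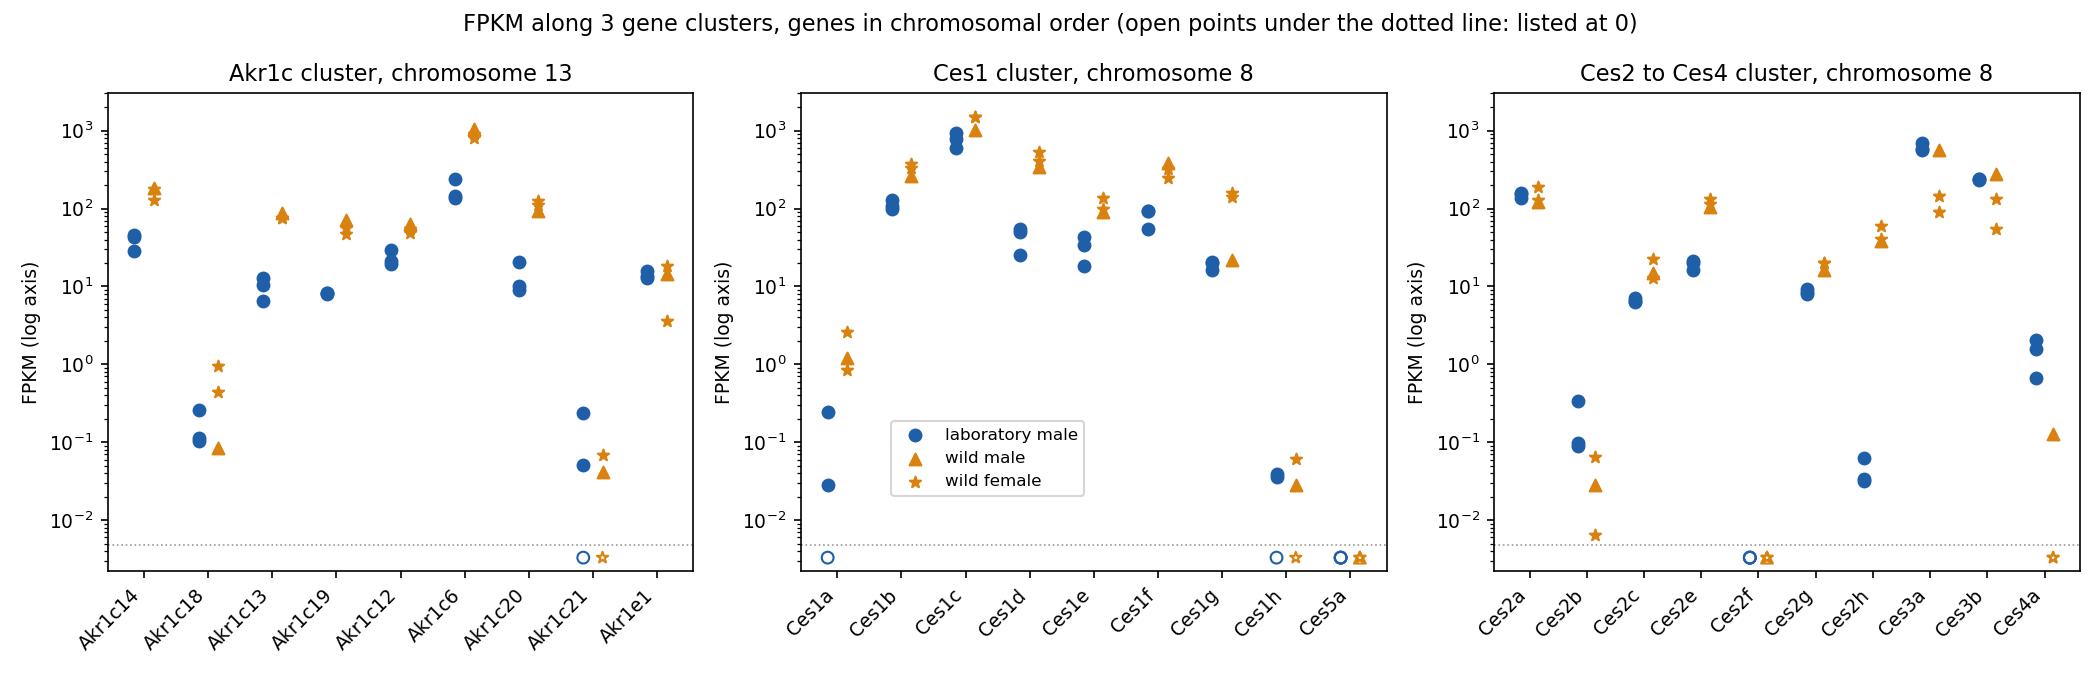
FPKM (vertical log axis) of each gene of 3 runs, in chromosomal order, in laboratory mice (circles), the wild male (triangle) and the wild females (stars). Open points under the dotted line are listed at 0. Wild mice lie above in most expressed genes of the Akr1c and Ces1 runs. In FPKM they lie above without overlap in 43.7% of all genes tested. The Ces2 to Ces4 run holds both Ces2h, with wild mice far above, and Ces4a, with wild mice below.

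None of the 5 alcohol dehydrogenases and 2 aldehyde oxidases tested was called, where 14.4% of all genes tested were called. These are too few genes to set against that share. With quantile normalization Adh1 and Adh5 were called higher in wild mice (limma adjusted p = 0.0119 and 0.0357). Adh7 and Aox3 were then called lower (limma adjusted p = 0.00342 and 0.0273). Adh1, the main enzyme of ethanol oxidation, was the highest of all 73 genes on average. Its FPKM was 787, 905 and 694 in laboratory and 1812, 1573 and 1418 in wild mice, 2.01-fold higher. On zFPKM the difference was 0.09 (95% interval -0.09 to 0.27, limma adjusted p = 0.593). Adh1 held 81.4% to 87.2% of the family's FPKM in every mouse. Adh5, which oxidises the adduct of formaldehyde and glutathione, had 87.2, 115 and 67.2 against 274, 212 and 223 (0.25, SE 0.116, limma adjusted p = 0.144). Aox3, the main aldehyde oxidase of mouse liver, had 56.3, 56.9 and 52.8 against 76.1, 32.2 and 45.6. The laboratory mice were close together and the wild mice lay on both sides of them in FPKM. In zFPKM each laboratory mouse lay above each wild mouse, as in 14.2% of all genes tested (-0.31, SE 0.135, limma adjusted p = 0.112). Aox1 ranged from 11.8 to 27.6 in laboratory and from 13.2 to 54.8 in wild mice (-0.09, SE 0.160, limma adjusted p = 0.784).

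The wild females were compared with the wild male in a model with origin and sex terms, in which the sex term rests on 1 male against 2 females and takes its error from the 3 laboratory males and the 2 females. Over all genes tested the median sex term was 0.38 and 92.6% of genes lay above 0, so single values are read against 0.38. Median zFPKM was -0.70 for the wild male, against -0.17 and -0.28 for the females, and each sex term holds this offset. Of the 63 enzymes, 2 were called, Ces1g among them and both higher in females, where 0.376% of all genes were called and 0.317% were called higher. The median sex term of the 63 was 0.28. Ces1g, a lipid-hydrolysing carboxylesterase, had FPKM of 16.2, 20.5 and 20.1 in the laboratory males, 21.8 in wild mouse 1, and 159 and 141 in the females. In FPKM the wild male sat beside the laboratory males, and the females were 6.90-fold above that male (1.17, SE 0.182). The call of Ces1g between origins (0.44, SE 0.143, limma adjusted p = 0.0191) came with groups that overlapped in zFPKM, and with centred log2(FPKM + 0.1) it was lost (limma adjusted p = 0.113). With each mouse's median zFPKM set to 0, without the trend, or without either wild female, no enzyme was called for sex. Without laboratory mouse 1 or 2 there were 4 calls each, and without laboratory mouse 3 there were 19. All 8 Kupffer markers (sex terms 0.97 to 1.93) and all 8 sinusoidal endothelial markers (0.63 to 1.78) lay above 0.38, with limma adjusted p of 0.0578 and above. For the Kupffer markers the summed FPKM was 24.2 in wild mouse 1, and 83.6 and 191 in the females, against 52.7 to 80.0 in laboratory mice. The endothelial markers summed to 23.5, 76.5 and 41.4 in wild mice 1 to 3, against 29.2 to 46.7 in laboratory mice. Their part in the sex terms was not tested.

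Other genes had unequal FPKM in the lone wild male and the wild females but were not called for sex. Of these, Aldh1a7 and Fmo2 were chosen after their values were seen. Ces3a was 4.70-fold higher in the male (sex term -0.69, SE 0.136, limma adjusted p = 0.0548) and Ces3b 2.94-fold higher (-0.45, SE 0.167, limma adjusted p = 0.351). Aldh1a7, a close relative of Aldh1a1, had 43.3, 49.3 and 43.1 in the laboratory males, 45.8 in wild mouse 1, and 110 and 169 in the females (0.74, SE 0.176, limma adjusted p = 0.126). Fmo2 was 3.6-fold higher in the females (0.99, SE 0.322, limma adjusted p = 0.275). In Ces1g and Aldh1a7 the wild male thus had nearly the FPKM of the laboratory males. In zFPKM, however, that male lay below each laboratory male in both genes. The origin terms with sex in the model were -0.34 and -0.38, against a median of -0.27 over all genes tested.

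**Figure D5:**
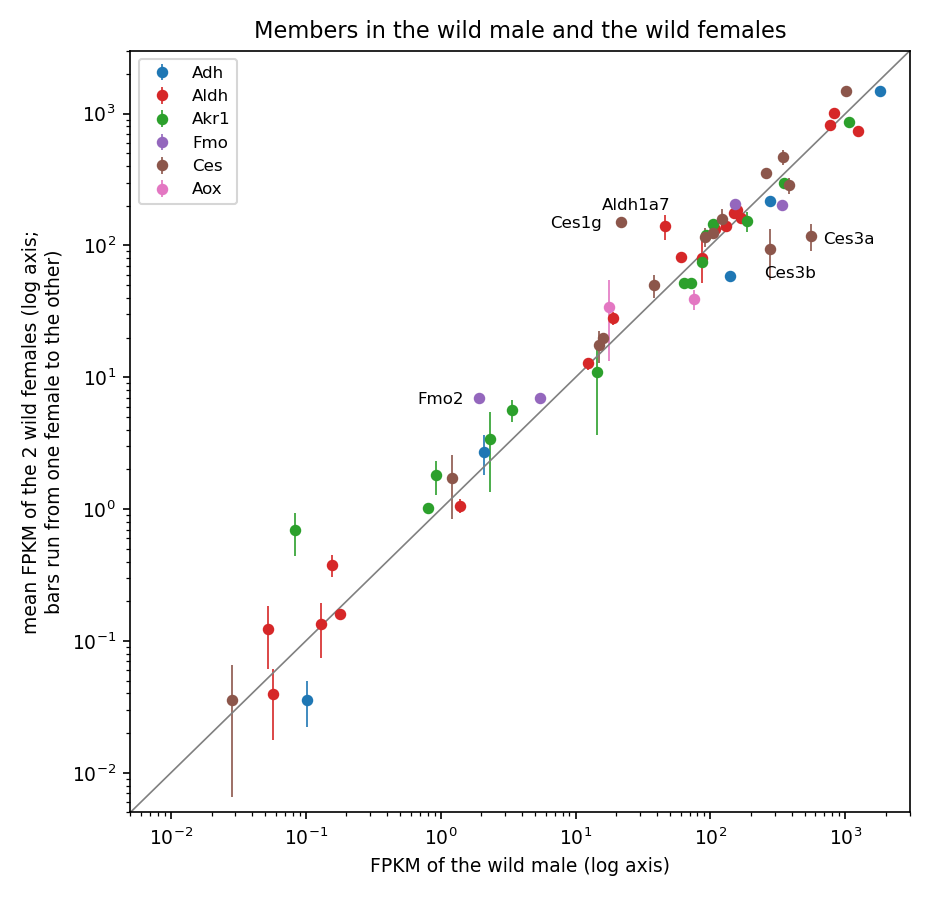
Mean FPKM of the 2 wild females (vertical log axis, bars from one female to the other) against FPKM of the wild male (horizontal log axis) for 59 tested genes above 0 in all 3 wild mice, coloured by family. The line marks equal values. Ces1g lies far above it and Ces3a and Ces3b below it.

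Set against the laboratory males alone, in the same model, the wild male differed in 8 of the 63 enzymes, all higher in the wild male, where 7.38% of all genes were called and 1.34% were called higher. The median of this term over all genes was -0.27, and the term also holds the low median zFPKM of the wild male (-0.70). The 8 were Aldh1a1, Aldh1b1, Aldh1l1, Aldh4a1, Akr1c6, Akr1c19, Ces1d and Ces2h. Ces2h had a term of 3.06 (limma adjusted p = 0.00200) and Aldh1b1 one of 1.37 (limma adjusted p = 0.00567). Aldh1a1 was 9.40-fold and Akr1c6 6.12-fold higher in the wild male (limma adjusted p = 0.00611 and 0.0160). For Ces3a the wild male had 0.912 times the laboratory mean and a term of -0.35 (limma adjusted p = 0.115), and for Ces3b 1.17 times and -0.25 (limma adjusted p = 0.372). Without wild mouse 2 or wild mouse 3 none of the 63 was called in this comparison, and without laboratory mouse 3 there were 32.

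Genes with a part in the same reactions were read from lists. Of 24 other phase I enzymes, 8 were higher and 2 lower in wild mice, with a median zFPKM difference of 0.20, against 7.28% and 7.17% and a median of -0.0050 over all genes tested. Suox, the molybdenum enzyme that oxidises sulphite, had FPKM of 1.31, 2.21 and 1.24 in laboratory and 73.3, 34.2 and 44.3 in wild mice, 31.9-fold higher (1.5, SE 0.191, limma adjusted p = 6.92e-13). Nqo1, a quinone reductase, was 9.98-fold, Maob, an amine oxidase of mitochondria, 6.27-fold and Pon3, a lactonase, 4.69-fold higher (limma adjusted p = 0.000237, 1.09e-05 and 0.00926). Cda, which deaminates cytidine, was 4.34-fold higher in laboratory mice (-1.01, limma adjusted p = 5.98e-06). Por, Pon1, Cbr4 and Adhfe1 were the others called higher and Aadac the other called lower. Of 12 regulators of xenobiotic metabolism, 1 was higher and 1 lower in wild mice, against 7.28% and 7.17% of all genes tested. Rxra, the shared partner of many nuclear receptors, was 4.90-fold higher (0.55, limma adjusted p = 0.00228). Nr1h4, the bile acid receptor, was lower (-0.51, limma adjusted p = 0.00217). The receptors Nr1i2, Nr1i3, Ahr and Ppara and the factor Nfe2l2 were not called, with adjusted p between 0.589 and 0.981. Of 9 measured regulators of sex-dependent liver genes, Cux2, a repressor known from female liver, had 0.0562, 0.0499 and 0.0903 in the laboratory males, 0.0808 in wild mouse 1, and 6.10 and 7.79 in the females (sex term 2.70, limma adjusted p = 0.0254). Bcl6, a repressor known from male liver, had 8.60, 10.6 and 15.1 in the laboratory males, 2.03 in wild mouse 1, and 7.09 and 13.3 in the females. It was called between origins (-0.60, limma adjusted p = 0.0188) although the females overlapped the laboratory mice, and its sex term was 1.14 (limma adjusted p = 0.0511). Trim24 was higher in wild mice (0.62, limma adjusted p = 0.0476).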

How the data were processed

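Liver mRNA of 6 mice was sequenced as stranded, polyA-selected single-read libraries. Per the study's methods, the authors aligned reads with kalign to a repeat-masked GRCm38.p6 genome, a C57BL/6 reference that served wild mice too. The FPKM they deposited come from the Tuxedo pipeline and are scaled to transcript length and library size. The authors also deposited zFPKM, a score that places each log2 FPKM on a scale fitted to that mouse. No counts were used, so the study's edgeR test was not repeated.

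24 names with a marked failed estimate were left out, and failures are not marked for laboratory mouse 1. The test took genes whose zFPKM passed -3 in 3 or more mice, and raised lower values to -3. It was limma 3.58.1 (R 4.3.3, lmFit, eBayes with trend, Benjamini-Hochberg adjustment over 18619 genes, adjusted p under 0.05), by origin and by origin and sex, after tests on simulated data. A run of genes means members at most 1000000 bases apart. Shared stretches are 100-base sequences of GENCODE transcripts.

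The enzymes and lists were chosen with earlier results of these data known. Named were the highest gene of each family, genes called between origins without overlap in zFPKM, genes called for sex, enzymes at 0 in 1 group and above an FPKM of 1 in the other (0 found) and at most the 5 largest called differences of each other list. Some genes that met the rule are not reported here and stay in the counts. Others were chosen after their values were seen. Alternatives were other scales, floors, filters and normalizations, no trend, sex as a covariate and each mouse left out.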

Additional observations from a re-analysis of the deposited data

How the results depend on the processing

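Between origins, 26 enzymes were called (23 higher in wild mice, 3 lower). With log2(FPKM + 1) there were 41 (40 and 1), with log2(FPKM + 0.1) 43 (42 and 1), without the filter 0, without the trend 5 (4 and 1) and with sex as a covariate 8 (8 and 0). A median of 0 in each mouse gave 15 higher, quantile normalization 6 lower and centred log2(FPKM + 0.1) 8 lower. Leaving out each mouse gave 15 to 27 in all, 12 to 23 higher and 2 to 6 lower, with 15 in all and 12 higher without wild mouse 3 and 6 lower without laboratory mouse 3. Without laboratory mouse 3 and wild mouse 1 together, chosen after seeing the data, 5 were lower and all 26 calls were kept. For sex (2 called), the floor of -5 gave 1, and no filter, a median of 0 and no trend gave 0. Leaving out each mouse gave 0 to 19, with 0 without either wild female and 19 without laboratory mouse 3. For the wild male against laboratory males (8 called), log2(FPKM + 1) gave 31, log2(FPKM + 0.1) 35, the filter on all 6 mice 14, no filter 0, quantile normalization 28, a median of 0 24, centred log2(FPKM + 0.1) 25 and no trend 0. Leaving out each mouse gave 0 to 32, with 0 without either wild female and 32 without laboratory mouse 3. Neither could be fitted without wild mouse 1. The cause of these changes was not tested. Shares of all genes between origins stand above for log2(FPKM + 0.1), centred or not, quantile normalization, a median of 0 and sex as a covariate. For the other alternatives, and for sex and the wild male under any alternative, no share is given. Those counts show nothing particular to the enzymes. The sign of the difference of Ces1c, not called, reversed with a median of 0 (-0.025), without laboratory mouse 3 (-0.030), without wild mouse 2 (-0.0067) or 3 (-0.049) (range over mice left out -0.049 to 0.083) and with sex (-0.14), and the sex term with a median of 0 reversed for Ces1c (-0.25) and Aldh2 (-0.32). Of 445 values of single named enzymes between origins under alternatives, 332 kept direction and call, 101 kept direction and lost the call, 7 gained a call and 5 reversed. Ces2h, Aldh1b1 and Ces1d were called under 15 of 16 alternatives each, with adjusted p up to 0.229.

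No paired analysis was possible because the replicate numbers only name the mice. With 1 wild male, 3 mice a group and unknown absolute depth, a missing call does not show equal levels, and low genes such as Ces1a and Ces4a rest on few reads.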

Other observations

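Enzymes of retinoid handling, which act beside Aldh1a1, were also read. Of 22 listed, 20 were tested, 5 were higher in wild mice and none was lower, with a median zFPKM difference of 0.18, against 7.28% and 7.17% and a median of -0.0050 over all genes tested. Bco1, which cleaves carotene to retinal, had FPKM of 0.332, 0.187 and 0.412 in laboratory and 7.61, 9.14 and 8.84 in wild mice, 27.5-fold higher (1.44, limma adjusted p = 3.18e-05). Rdh16f2, a retinol dehydrogenase relative, was 7.22-fold higher (0.70, limma adjusted p = 5.39e-06). Cyp26b1, which breaks down retinoic acid, had 0, 0.0417 and 0.136 against 1.71, 1.37 and 0.727 (limma adjusted p = 0.00294), and Dhrs9 was 13.2-fold higher from a laboratory level of at most 0.288 (limma adjusted p = 0.0483). Rxra was the other. Cyp26a1 spread widely within both groups, from 1.18 to 17.5 and from 1.56 to 82.0.

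None of the 5 genes that make the molybdenum cofactor was called, with a median difference of 0.07. Over all genes tested 14.4% were called, and 5 genes are too few to set against that share. Mocos, which adds sulphur to the cofactor of aldehyde oxidase, had FPKM of 4.85, 7.0 and 5.92 in laboratory and 23.0, 19.4 and 17.7 in wild mice (0.37, limma adjusted p = 0.171).

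Of the names left out for their suffix, Adh6-ps1 had 15.6, 9.03 and 8.68 in laboratory and 0.542, 5.59 and 2.27 in wild mice (-1.13, SE 0.224, limma adjusted p = 1.71e-05). Ces2d-ps had 7.07, 6.21 and 6.16 against 7.06, 13.1 and 6.72 (limma adjusted p = 0.790), and Ces2c shares 13.6% of its stretches with other transcripts, most of them with Ces2d-ps.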
